A study of Mus musculus with 8 samples.

Results

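Transcripts of mouse natural killer (NK) cells after 4 days of activation with interleukin-2 (IL-2) were compared with those of freshly isolated NK cells. The comparison rests on 4 of the 8 Affymetrix Mouse Gene 2.0 ST arrays of the study, chosen by their titles alone, with 2 biological replicates on day 4 and 2 on day 0. Each gene with a symbol of its own was represented by its brightest transcript cluster, and 13998 of 22180 genes passed the filter on dim signals. All groups started from bone marrow suspensions depleted of T cells through CD90. The day 4 cells had been cultured with 1000 IU/mL of IL-2 and were collected as the adherent fraction, called acute activation. The day 0 cells were the freshly isolated controls without activation. Their titles call them naïve, although the source label of all 8 arrays speaks of activated cells. The remaining 4 arrays, 2 of day 9 cells given IL-2 again on day 4 and 2 of day 9 cells also given 7.5 µM of the ATM inhibitor KU55933 from day 4, entered the estimate of the spread. The day 9 arrays without inhibitor were also set against day 4. The labels give no strain, age or number of mice per array, and no step beyond T cell depletion that separated the fresh NK cells from other marrow cells.

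NK cells are lymphocytes that kill infected or transformed cells by releasing perforin and granzymes from lytic granules. In the resting state they are small, divide little and carry the beta and gamma chains of the IL-2 receptor. High doses of IL-2 signal through JAK kinases and STAT5 and through PI3K and mTOR. The cells then enlarge, enter the cell cycle, take up nutrients and fill their granules. FOXO transcription factors are held in the nucleus of resting lymphocytes and maintain quiescence and homing genes until PI3K signalling removes them.

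All levels below are log2 signals as deposited, and all changes are differences of log2 signals, day 4 minus day 0. A change is followed by its standard error from limma, and a gene was called when limma's p-value, adjusted by Benjamini-Hochberg over the 13998 genes, lay below 0.05. The correlation of the 2 replicates over all tested genes was 0.994 on day 4 and 0.976 on day 0, and genes are no independent replicates. The median SD between them was 0.079 on day 4 and 0.161 on day 0. A difference over 1 between the 2 arrays was seen for 16 genes on day 4 and 211 on day 0, so the day 0 replicates differed more from each other. The labels do not say whether replicates came from separate animals, so p-values measure only the spread between these arrays. Where both arrays of a group lay below their array medians the signal was taken as background, and a change against it is given as measured, together with the distance of the other group to the array medians as its smallest size. That applies to 249 called rises, for the day 0 side, and to 402 called falls, for the day 4 side. Among the genes below it holds for the rises of 4 granzymes, whose smallest sizes stand beside them, and of Chil3, Zdhhc2, Depdc1a, Sgo1, Hmmr and Sh2d1b2, for which the smallest size lay between 2.56 (Sh2d1b2) and 3.91 (Depdc1a). It also holds for the falls of Grk3, Ace, Tubb1, Cr2, Car1, Clec1b, Hspa1a, Flt3, Slamf1 and Hspa1b, with smallest sizes between 1.79 (Hspa1b) and 5.22 (Grk3). Granzymes, Klra and H2 genes, histones, ribosomal proteins, Hspa1a with Hspa1b, and Serpinb9b have near-identical relatives, and which copy their probes read is uncertain.

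By day 4 the signal of 8391 genes had changed, which is 59.9% of all genes tested. Of these, 5250 (37.5% of all tested) were higher on day 4 and 3141 (22.4%) were lower. The median change of all tested genes was 0.08. When each array was centred on its median over the tested genes, changes moved by -0.35 (median -0.27). Then 3885 genes (27.8%) were higher and 5735 (41%) lower. The direction and the call were shared by both scalings for 7026 genes. Counts of called members in the lists below are to be read against these shares. Overlap between the day 4 and day 0 arrays was absent for 78.6% of all genes.

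A rise of at least 2-fold was called for 2898 genes and a fall of that size for 1147. At 4-fold or more the counts were 715 higher and 302 lower, at 8-fold 167 and 91, and at 16-fold 27 and 23. By measured values 4 genes were at least 32-fold higher and 7 at least 32-fold lower. The 4 are granzyme genes at background on day 0, and of the 7 Grk3, Ace and Tubb1 were at background on day 4, so these folds are not exact. Rises among called genes had a median of 1.08 and falls of -0.81. The measured members of 40 function lists are shown by their changes in the plot of list members.

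**Figure D1:**
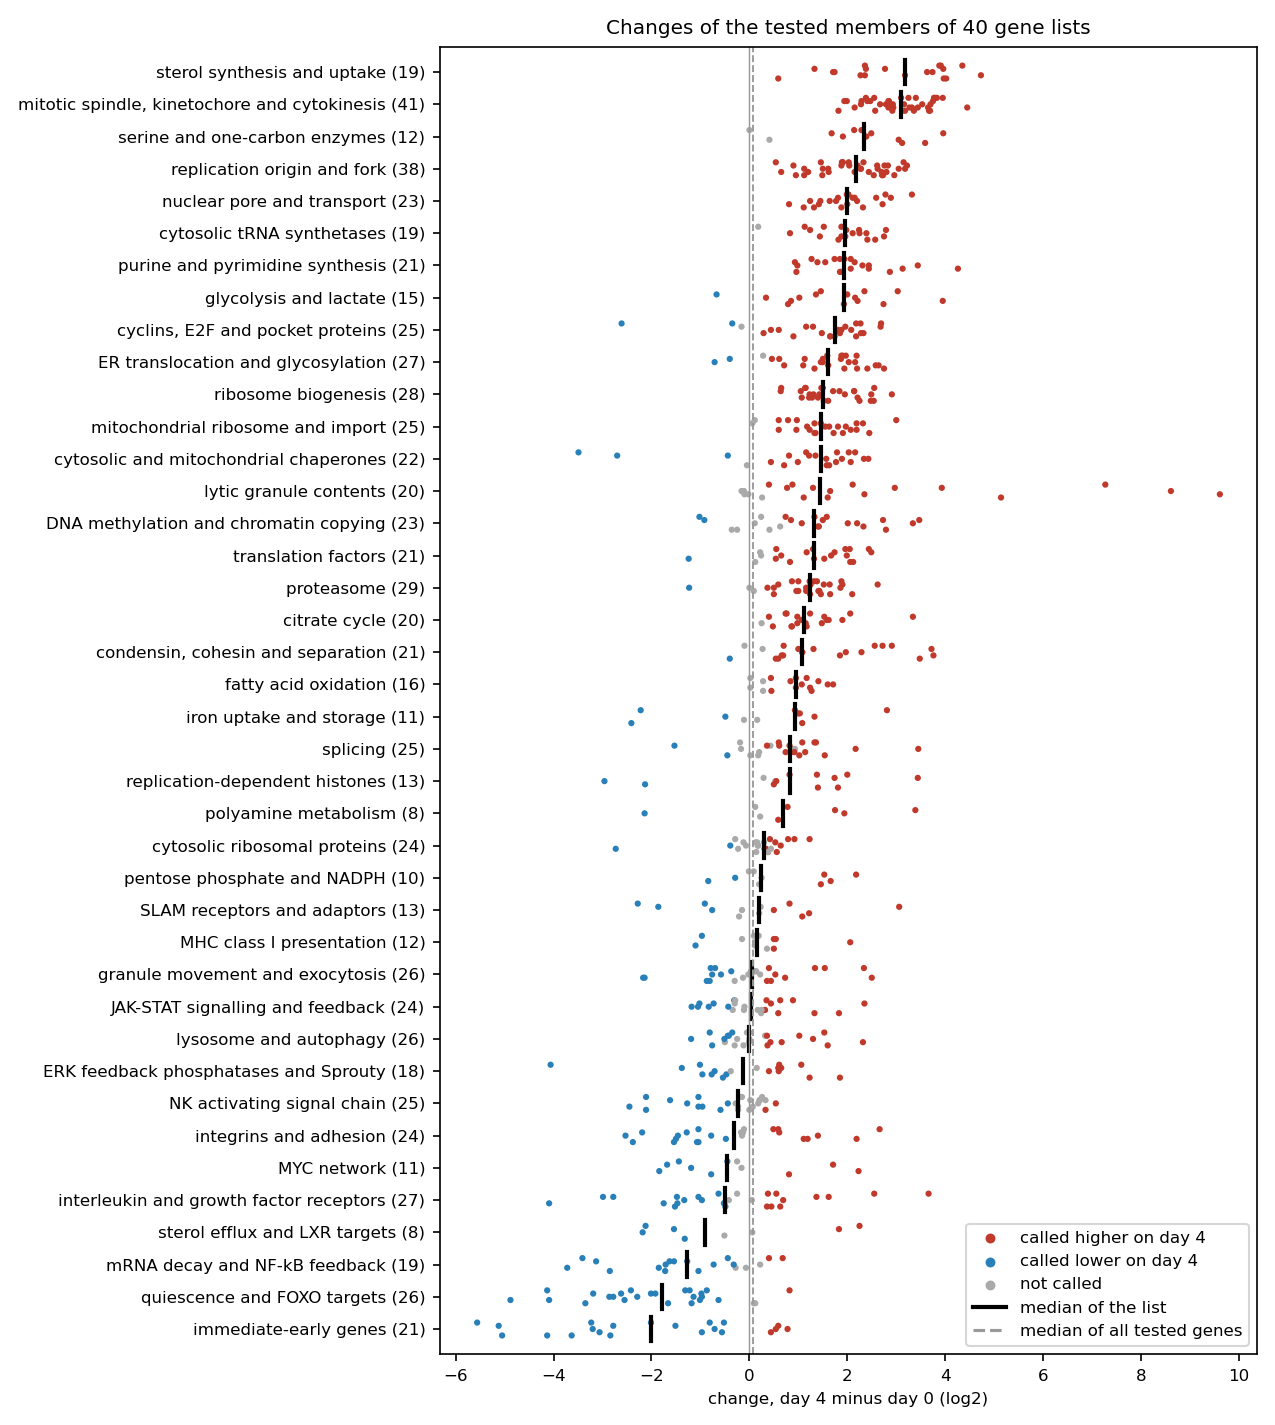
Change in signal (day 4 minus day 0, log2) of every tested member of 40 gene lists, ordered by the list median (black bar), with the number tested in brackets. Red points were called higher, blue points called lower and grey points not called, and the dashed line marks the median of all tested genes (0.08). Sterol and mitotic genes lie furthest to the right (medians 3.18 and 3.10), immediate-early and quiescence genes furthest to the left (medians -2.01 and -1.79).

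The identity of the cells was checked first. Of the 12 NK cell markers measured, 5 were higher on day 4, 3 were lower and 4 were not called, with a median change of 0.22. These shares are near the 37.5% higher and 22.4% lower of all genes. After centring 4 markers were higher and 5 lower (median -0.12). The activating receptor NKp46 (Ncr1, transcript cluster 17473300) gave 10.87 and 10.85 on day 4 and 10.61 and 10.70 on day 0, a change of 0.21 ± 0.10 that was not called (adjusted p = 0.122). Its 95% interval lay within 1.5-fold either way, as did those of Klrk1 (NKG2D), Klre1 and Cd244a (2B4). Perforin (Prf1) rose by 2.35 ± 0.11 (5.11-fold, adjusted p = 2.34e-06), the IL-2 receptor beta chain Il2rb by 1.37 ± 0.11 (2.59-fold, adjusted p = 2.15e-05) and granzyme A (Gzma) by 0.88 ± 0.11. The T-box factors that specify NK cells moved apart. Eomes rose by 1.06 ± 0.13 and Tbx21 fell by 0.93 ± 0.15. The receptor genes Klrb1c (-0.59, adjusted p = 0.0291) and Klrd1 (-0.42, adjusted p = 0.0174) were called lower and the granule membrane gene Nkg7 (0.40, adjusted p = 0.0148) higher, but each of these small changes lost its call when a single array was left out. Without day 4 replicate 2 the adjusted p was 0.18 for Klrb1c, 0.109 for Klrd1 and 0.0799 for Nkg7, without day 0 replicate 2 it was 0.128 for Klrb1c and 0.0506 for Klrd1, and without day 4 replicate 1 it was 0.0592 for Nkg7. The summed linear signal of the NK markers was 20474 and 20151 on day 4, against 12161 and 12968 on day 0. Bright genes weigh more in this sum. It holds Prf1, Il2rb and Gzma, which rose, together with the markers that were lower or stayed within 1.5-fold.

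Markers of other blood cells differed between the days as well. The 6 platelet and megakaryocyte markers were all lower on day 4 (median -3.06), with a summed linear signal of 144 and 191 on day 4, against 2332 and 2507 on day 0. All 8 B cell markers were lower (median -1.92, sums of 511 and 336 on day 4 and of 1474 and 1587 on day 0). Of the 11 dendritic cell markers 9 were lower and 1 higher (median -1.75), with sums of 2703 and 2994 on day 4 and of 8250 and 7959 on day 0. Erythroid markers summed to 52 and 62 on day 4 and to 248 and 337 on day 0, with 3 of 4 lower. Neutrophil markers went the other way, with 14 of 17 higher and none lower (median 1.76), and sums of 1412 and 1377 on day 4 against 394 and 363 on day 0. The largest of these rises was that of the lectin Chil3, whose signal was 7.88 and 7.73 on day 4 and 3.17 and 3.44 on day 0. Monocyte and macrophage markers were split, 5 higher and 6 lower of 13. Their sums were 3234 and 3696 on day 4 and 3206 and 3642 on day 0, and Lyz2 was still at 9.30 and 9.45 on day 4. Of the 10 T cell markers 6 were lower and 2 higher (median -0.76), while their sums were 839 and 877 on day 4 and 752 and 866 on day 0. The plot of marker lists gives the list medians by array, and levels of different lists are not comparable, since probes differ in brightness. These are bulk samples, so fewer cells of a type and less RNA per cell cannot be told apart, and what part a change in the mixture of cells had in the gene groups below was not tested.

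**Figure D2:**
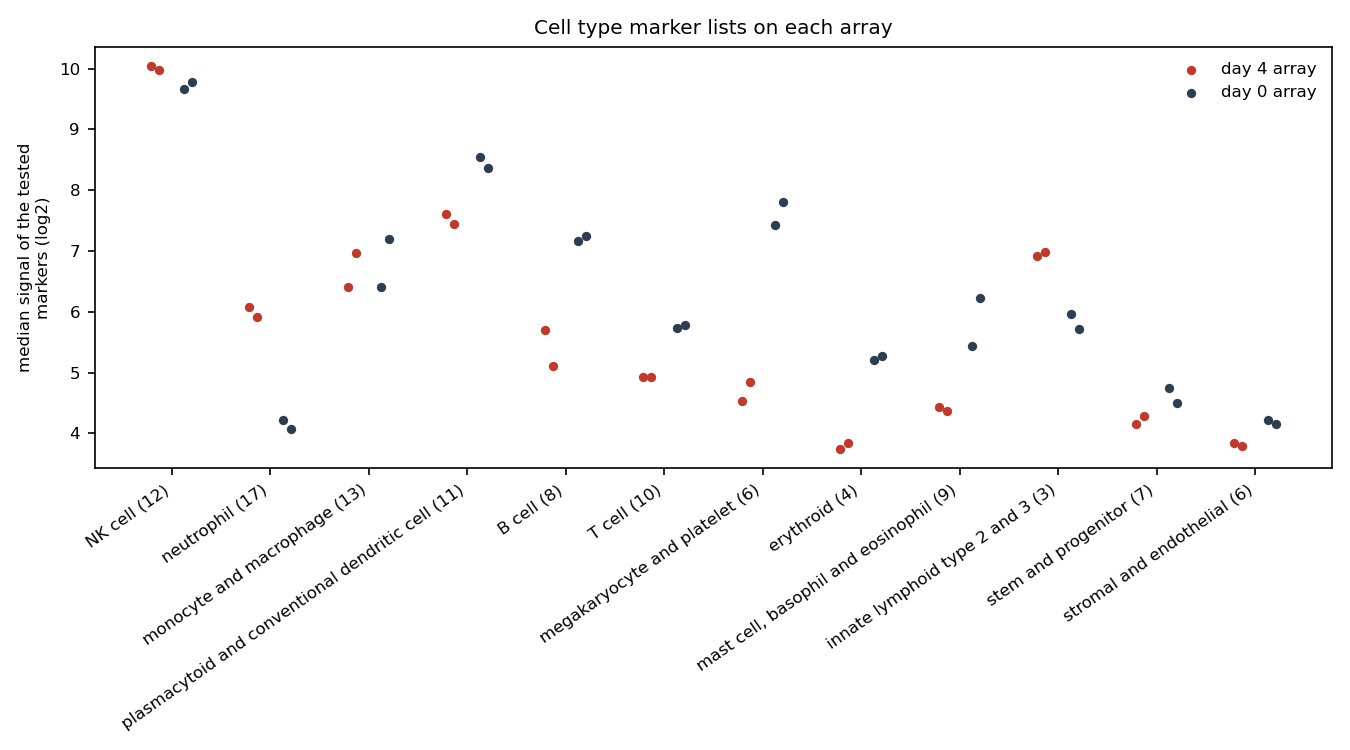
Median signal (log2) of the tested markers of 12 cell types on each array, with the number of markers in brackets; red points are the 2 day 4 arrays and dark points the 2 day 0 arrays. The NK cell median lies between 9.67 and 10.04 on all 4 arrays, while the platelet median is 4.54 and 4.84 on day 4 and 7.43 and 7.81 on day 0.

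The largest rises were granule proteases. Granzyme D (Gzmd, cluster 17306991) gave 12.07 and 12.08 on the day 4 arrays, against 2.65 and 2.28 on the day 0 arrays, a measured rise of 9.61 ± 0.14 (adjusted p = 7.12e-08). Gzmc, Gzmg and Gzmf followed with 8.61, 7.27 and 5.14. Their day 0 signals were background on both arrays, and against the array medians the rises were at least 288-fold for Gzmd, 254-fold for Gzmc, 60.4-fold for Gzmg and 12.6-fold for Gzmf. Next came the sterol demethylase Cyp51 (4.73), the inhibitory receptor gene Klra5 (4.58), the fatty acid desaturase Fads2 (4.55), Chil3, the costimulatory receptor 4-1BB (Tnfrsf9, 4.47), asparagine synthetase (Asns, 4.46), the checkpoint kinase Bub1 (4.45), the amino acid transporter Slc7a5 (4.41) and TIM-3 (Havcr2, 4.40). The other genes among the 25 largest rises included Rgs16 (4.31), which shortens G protein signalling, Ulbp1 (4.25), a ligand of the receptor NKG2D, the palmitoyltransferase Zdhhc2 (4.24), CD30 (Tnfrsf8, 4.09) and the nucleobase transporter Slc43a3 (4.06). The division genes Rrm2, Cip2a, Stil, Shcbp1, Pclaf and Depdc1a were also there, at 4.26, 4.20, 4.11, 4.06, 4.05 and 4.03.

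Of these 25 genes, the ligand Ulbp1 had 8.38 and 8.40 on day 4 and 4.35 and 3.94 on day 0. NK cells are better known for carrying its receptor, whose gene Klrk1 was measured at 9.62 and 9.55 on day 4 and 9.81 and 9.91 on day 0.

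Among the 25 largest falls were transcription factors of the immediate-early response. The largest was that of Fos, which was at 4.59 and 4.80 on day 4 and at 10.09 and 10.43 on day 0, a fall of 5.56 ± 0.15 (adjusted p = 6.17e-07). Fosb (-5.12), Nr4a1 (-5.05) and Dusp1 (-4.06), a phosphatase of MAP kinases, are on the same list. The zinc finger factors Klf2 (-4.88) and Klf4 (-4.13) and Ppp1r15a (-4.21), which restarts translation after stress, were lower as well. The G protein regulators Grk3 (-5.34) and Rgs2 (-4.66), the IL-7 receptor Il7r (-4.09) and the nuclear noncoding RNAs Neat1 (-3.79) and Lncpint (-3.83) fell too. Several others are known from other blood cells. Ppbp (-5.08), Tubb1 (-5.12), Clec1b (-4.56) and Alox12 (-4.11) are platelet genes, Car1 (-4.67) is an erythroid gene, Cr2 (-4.56) and H2-DMb2 (-3.90) are known from B cells, and Adgre4 (-4.37) and the peptidase Ace (-5.41) from monocytes. The platelet and erythroid marker sums above were lower on day 4 as well, but Ppbp and Car1 are themselves among those markers. For them these sums are no separate observation. The B cell sums were lower too. Those of monocytes and macrophages were 3234 and 3696 on day 4 and 3206 and 3642 on day 0. The part of other cell types in these falls was not tested.

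**Figure D3:**
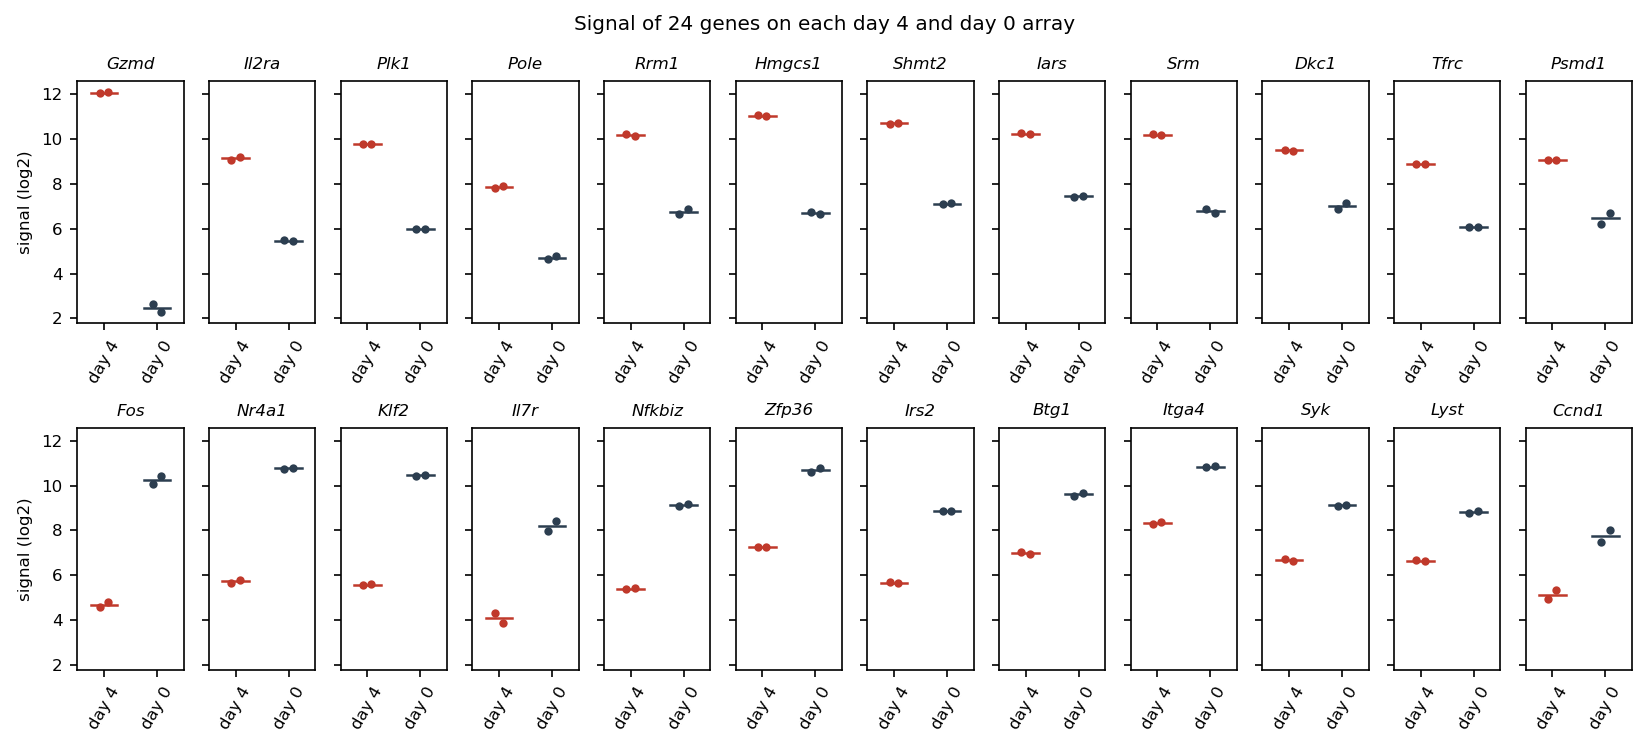
Signal (log2) of 24 genes on each array, with day 4 (red) left of day 0 (dark); short lines are the means of 2 arrays. In the upper row every day 4 array lies above both day 0 arrays (Gzmd 12.07 and 12.08 against 2.65 and 2.28), and in the lower row every day 4 array lies below them (Fos 4.59 and 4.80 against 10.09 and 10.43).

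Genes that build the mitotic spindle and divide the cell rose without exception. All 41 tested of 42 listed were higher on day 4 (background 37.5%), with changes between 1.82 and 4.45 and a median of 3.10. The polo-like kinase Plk1 (cluster 17482739), which drives entry into mitosis, was at 9.79 and 9.77 on day 4 and at 5.97 and 5.99 on day 0, a rise of 3.79 ± 0.10 (13.9-fold, adjusted p = 6.17e-07). The spindle motor Kif11 was at 9.51 and 9.56 on day 4 and at 5.83 and 5.86 on day 0 (3.69 ± 0.10). Cenpe, a kinetochore motor, was at 9.01 and 9.00 on day 4 and at 5.43 and 5.19 on day 0, and cyclin A2 (Ccna2) rose by 3.32 ± 0.11. Overlap between day 4 and day 0 arrays was absent for all 41, against 78.6% of all genes. The summed signal of the neutrophil markers was also higher on day 4, and its part in the rise was not tested.

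Promoters of mitotic genes are known to carry the cell cycle homology region (CHR), read as TTTGAA, which binds the DREAM and MuvB complexes, often next to a CCAAT box bound by NF-Y. RefSeq windows from 250 bases before to 50 after the start of the transcript (GRCm38.p6) were available for 10893 of the 13998 tested genes. TTTGAA, searched on both strands, was found in 31 of 37 windows of the mitotic genes (83.8%), against 17.9% of all 32851 windows and 12.2% of the windows of tested genes. In 29 of the 31 it lay within 50 bases of the start site, which was so for 27.6% of all windows holding it. Of 35 mitotic genes with a window 29 held it, and Birc5, Bub1, Cenpe, Mad2l1, Nuf2 and Nusap1 did not, which says only that these letters are not in these windows. CCAAT was found in 27 of the 37 windows (73%), against 37.4% of all windows and 36.8% of those of tested genes. Among all genes called at least 2-fold higher 14.4% of windows held TTTGAA. The share was 13.8% for genes called at least 2-fold lower and 12.2% for genes not called. Shown are 30 bases around the CHR of the mitotic genes with the lowest adjusted p whose window holds it, with the 6 bases in capitals (TTCAAA is the same motif on the other strand).
Plk1 (chr7:122159453-122159482, plus strand): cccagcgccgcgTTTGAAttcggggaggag
Kif11 (chr19:37376351-37376380, plus strand): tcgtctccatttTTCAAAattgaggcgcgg
Prc1 (chr7:80294434-80294463, plus strand): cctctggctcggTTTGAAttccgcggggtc
Hmmr (chr11:40733412-40733441, minus strand): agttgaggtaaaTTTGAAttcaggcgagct
Top2a (chr11:99024195-99024224, minus strand): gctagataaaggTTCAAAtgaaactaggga
Kif4 (chrX:100626072-100626101, plus strand): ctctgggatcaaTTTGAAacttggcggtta
Aurka (chr2:172370521-172370550, minus strand): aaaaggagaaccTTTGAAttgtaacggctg
Kif14 (chr1:136467608-136467637, plus strand): ggaggtcctgtcTTTGAAgtctgcagtgtc
The first 7 of the 8 have the motif between 23 bases before and 33 after the start site, on either strand, and Kif14 has it 228 bases before. Their changes on day 4 ran from 2.38 (Kif14) to 3.83 (Hmmr, a spindle-binding protein). The whole window of Plk1 (chr7:122159185-122159484, plus strand) is shown because it holds both motifs, a CCAAT box 14 bases before the start site and the CHR from base 31, each in capitals.
Plk1 window: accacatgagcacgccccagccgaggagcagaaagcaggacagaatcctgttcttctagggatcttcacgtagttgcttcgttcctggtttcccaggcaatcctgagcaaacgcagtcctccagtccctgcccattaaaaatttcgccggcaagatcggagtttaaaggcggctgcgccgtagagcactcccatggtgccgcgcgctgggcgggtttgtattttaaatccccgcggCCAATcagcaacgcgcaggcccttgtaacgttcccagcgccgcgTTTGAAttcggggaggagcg

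DNA replication genes rose as completely. All 38 tested members of the replication origin and fork list were higher on day 4, with a median of 2.18 and a range from 0.54 to 3.22. Primase (Prim1), which starts each new strand, was at 8.59 and 8.56 on day 4 and at 5.33 and 5.38 on day 0 (3.22 ± 0.12, adjusted p = 1.21e-06). The leading-strand polymerase Pole rose by 3.15 ± 0.11, the origin recognition gene Orc2 by 2.83 ± 0.11, the polymerase subunit Pold2 by 2.71 ± 0.12 and the helicase subunit Mcm2 by 2.61 ± 0.12. Promoters of replication genes are known for E2F sites. The 2 forms searched, TTTGGCGC and TTTCCCGC on both strands, were found in 11 of the 37 windows available for 30 of these genes (29.7%). They were in 1.56% of all windows and 2.72% of those of tested genes. Among all genes called at least 2-fold higher 4.37% of windows held either form, against 1.74% for genes called at least 2-fold lower and 2.21% for genes not called. The window of Mcm3, a subunit of the replicative helicase (chr1:20820263-20820562, minus strand), holds 2 such sites, from bases 20 and 39 after the start site, and is shown with both in capitals.
Mcm3 window: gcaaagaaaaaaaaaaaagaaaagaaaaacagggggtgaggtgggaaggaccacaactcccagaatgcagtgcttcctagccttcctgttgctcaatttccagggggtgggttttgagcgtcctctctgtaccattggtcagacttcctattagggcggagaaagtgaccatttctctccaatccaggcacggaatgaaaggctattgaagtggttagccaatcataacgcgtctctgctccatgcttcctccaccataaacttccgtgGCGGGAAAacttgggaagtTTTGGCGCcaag

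Cohesion and chromatin genes followed with exceptions. In the condensin and cohesin list 18 of 21 were higher, 1 was lower and 2 were not called (median 1.08). Shugoshin (Sgo1), which protects cohesin at centromeres, rose by 3.72 ± 0.12, the condensin subunits Ncaph and Ncapg2 by 3.76 ± 0.15 and 3.48 ± 0.11, and the cohesin acetyltransferase Esco2 by 2.91 ± 0.12. Stag1, a cohesin subunit used in all cell cycle phases, was at 8.11 and 8.30 on day 4 and 8.38 and 8.23 on day 0, a change of -0.10 whose 95% interval lay within 1.5-fold. Among the genes that copy chromatin and DNA methylation 15 of 23 were higher and 2 lower (median 1.33). The histone chaperones Asf1b (3.47 ± 0.19), Chaf1a (2.33 ± 0.12) and Nasp (2.20 ± 0.12), the remodeller Hells (3.34 ± 0.19) and the histone H4 methyltransferase Kmt5a (2.01 ± 0.11) led the list. Against them Tet2 and Tet3, which oxidise methylcytosine, fell by 1.02 ± 0.14 and 0.92 ± 0.15, and the de novo methyltransferase Dnmt3a (7.12 and 6.95 on day 4, 7.06 and 6.79 on day 0) was not called.

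Histone genes of S phase were mixed. Only 13 of 28 listed had a cluster of their own, and 9 of these were higher and 2 lower. H2bc12 was at 8.66 and 8.59 on day 4 and at 5.14 and 5.23 on day 0 (3.44 ± 0.19), and H2ac20 (2.00 ± 0.14) and the linker histone H1f5 (1.74 ± 0.12) rose as well. H4c14 was at 4.71 and 4.45 on day 4 and at 7.63 and 7.45 on day 0, a fall of 2.96 ± 0.15, and H4c1 fell by 2.13 ± 0.19. The labels name polyadenylated RNA as the molecule measured, and most transcripts of this class end without a poly(A) tail, so these signals are those of the fraction that was amplified.

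The regulators upstream of S phase were mostly higher, 22 of 25 with 2 lower (median 1.74). E2f8 (2.69 ± 0.13) and Mybl2 (2.68 ± 0.15), the E2F partner Tfdp1 (2.18 ± 0.12) and the kinases Cdk4 (2.18 ± 0.12) and Cdk6 (1.96 ± 0.11) rose. D-type cyclins activate those kinases, and they did not move together. Ccnd1 averaged 5.13 ± 0.30 on day 4 and 7.74 ± 0.36 on day 0 (SD, n = 2 each), a fall of 2.61 ± 0.21 (adjusted p = 2.39e-05). Ccnd2, picked after its values were seen, was at 10.27 and 10.36 on day 4 and at 9.04 and 9.28 on day 0 (1.16 ± 0.12). The retinoblastoma gene Rb1 stayed within 1.5-fold (-0.16, adjusted p = 0.253).

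The MYC network, which sets growth and biosynthesis, had 3 of 11 tested genes higher and 6 lower (median -0.45). Myc itself, looked up after the values were seen, had 8.69 and 8.66 on day 4 and 9.19 and 9.06 on day 0, a fall of 0.45 ± 0.11 (adjusted p = 0.00704). Mycn was at 6.79 and 6.68 on day 4 and at 5.02 and 5.05 on day 0, a rise of 1.71 ± 0.12. Of the antagonists that compete with MYC for its partner MAX, Mxd1 fell by 1.84 ± 0.11, Mxi1 by 1.68 ± 0.13 and Mnt by 1.19 ± 0.14. Mxd3, of the same family, was called higher (0.81 ± 0.22, adjusted p = 0.0136), but not after centring (0.46, adjusted p = 0.122), without day 4 replicate 1 (adjusted p = 0.069) or without day 4 replicate 2 (adjusted p = 0.0517). Max itself stayed within 1.5-fold (-0.16, adjusted p = 0.226), and Mlx, the partner of the glucose-sensing Mondo proteins, rose by 2.23 ± 0.16.

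Building blocks for growth rose broadly. All 21 tested genes of purine and pyrimidine synthesis were higher (median 1.94), as were all 19 of sterol synthesis and uptake (median 3.18). Ribonucleotide reductase, which makes deoxynucleotides, showed it in both subunits. Rrm1 was at 10.24 and 10.13 on day 4 and at 6.64 and 6.86 on day 0 (3.44 ± 0.13), and Rrm2 was at 9.27 and 9.19 on day 4 and at 4.63 and 5.30 on day 0 (4.26 ± 0.20). Gmps (2.07 ± 0.11) for guanine nucleotides and Umps (2.44 ± 0.15) and Ctps (2.44 ± 0.15) for pyrimidines rose too.

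Hmgcs1, which makes the precursor of mevalonate, was at 11.07 and 11.03 on day 4 and at 6.75 and 6.66 on day 0 (4.35 ± 0.11, adjusted p = 6.17e-07). The later enzymes Sc5d (4.02 ± 0.13), Sqle (3.96 ± 0.12) and Hsd17b7 (3.63 ± 0.10) rose beside Cyp51. Genes that export sterols or answer to oxysterols through LXR moved the other way or split, with 4 of 8 lower and 2 higher (median -0.91). The exporters Abca1 and Abcg1 fell by 2.12 ± 0.13 and 1.54 ± 0.11, and Mylip, which removes the LDL receptor, averaged 7.01 ± 0.01 on day 4 (SD, n = 2) and was at 9.20 and 9.19 on day 0 (-2.18 ± 0.10). Npc1 (1.83 ± 0.11), which moves cholesterol out of lysosomes, and the phospholipid enzyme Lpcat3 (2.25 ± 0.13) rose, and Npc2 stayed within 1.5-fold. The sterol regulatory motif CACCCCAC was found in 1 of 18 windows of sterol genes (5.56%), against 2.87% of all windows and 3.25% of those of tested genes.

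Serine and folate enzymes, which supply carbon units to nucleotide synthesis, were higher in 10 of 12 cases and lower in none (median 2.34). Mitochondrial Shmt2 was at 10.67 and 10.74 on day 4 and at 7.10 and 7.13 on day 0 (3.59 ± 0.10), and its cytosolic relative Shmt1 rose by 3.05 ± 0.19. Psat1 (3.96 ± 0.18) in serine synthesis and Mthfd1 (2.29 ± 0.13) and Mthfd1l (1.68 ± 0.11) rose as well. Aldh1l2 lay below the array median on both days and was not called.

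Of the 19 cytosolic tRNA synthetases, which load amino acids onto tRNA, 18 rose and none fell (median 1.96). Iars (cluster 17287206), for isoleucine, was at 10.26 and 10.22 on day 4 and at 7.42 and 7.46 on day 0 (2.79 ± 0.10, adjusted p = 1.15e-06). Gars, Farsb, Tars and Kars rose by 2.57 ± 0.11, 2.75 ± 0.13, 2.41 ± 0.11 and 2.25 ± 0.12, and Vars, for valine, stayed within 1.5-fold (0.18, adjusted p = 0.187). Many genes of this class carry a CARE element, read by the stress factor ATF4. TTGCATCA on both strands was found in 3 of 13 synthetase windows (23.1%), against 0.895% of all windows and 0.6% of those of tested genes. It was in none of 12 windows of the serine and folate enzymes. Atf4 itself, looked up after the values were seen, was not called (-0.29, adjusted p = 0.0797), but was called lower after centring (-0.63, adjusted p = 0.00412). The Iars window (chr13:49681880-49682179, plus strand) is shown as the synthetase with the lowest adjusted p that holds the motif, which lies from base 8 after the start site and is in capitals.
Iars window: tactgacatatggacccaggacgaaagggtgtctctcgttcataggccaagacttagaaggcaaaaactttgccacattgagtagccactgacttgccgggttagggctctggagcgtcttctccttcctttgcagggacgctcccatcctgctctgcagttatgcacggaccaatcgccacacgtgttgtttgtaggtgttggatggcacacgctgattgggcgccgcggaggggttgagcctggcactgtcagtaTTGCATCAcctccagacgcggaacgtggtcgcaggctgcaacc

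**Figure D4:**
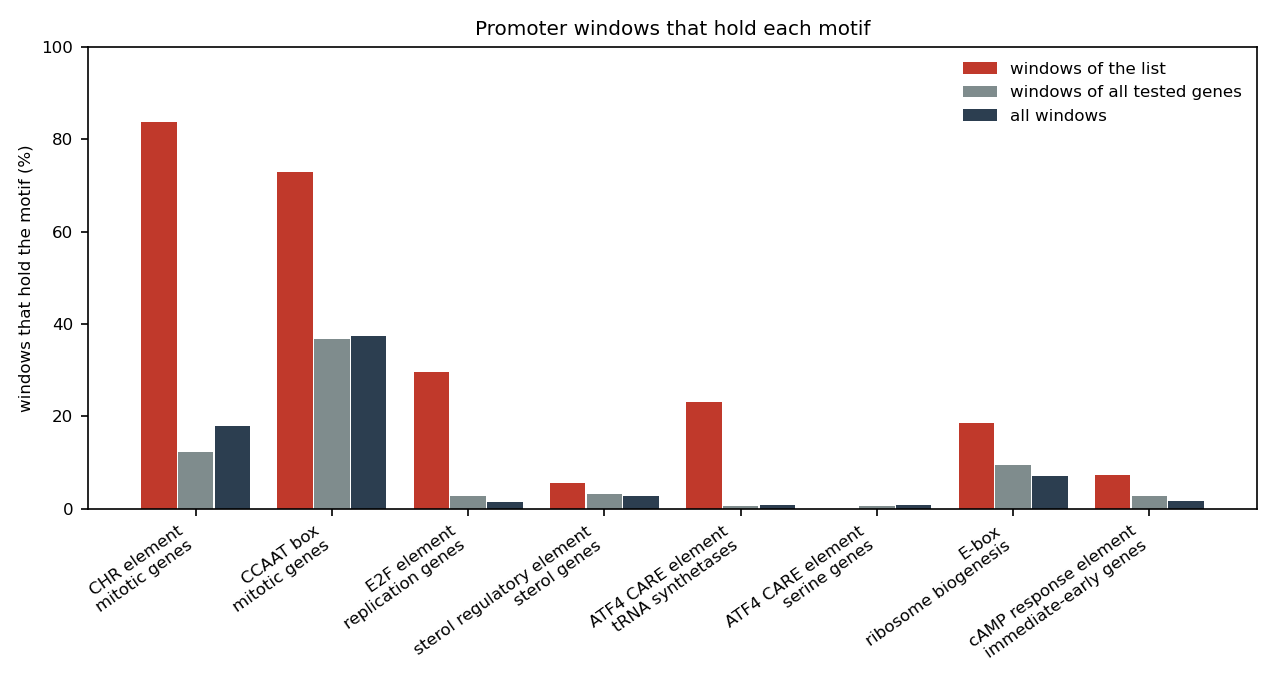
Share of promoter windows (percent, 300 bases each) that hold each motif, for the windows of the named list (red), of all tested genes (grey) and of all genes in the RefSeq table (dark). The CHR is in 83.8% of mitotic windows against 17.9% of all windows, and the sterol motif in 5.56% against 2.87%.

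Ribosome biogenesis rose in all 28 tested genes (median 1.51). Dyskerin (Dkc1), which modifies ribosomal RNA, was at 9.51 and 9.49 on day 4 and at 6.87 and 7.17 on day 0 (2.48 ± 0.13). The polymerase I subunit Polr1b (2.25 ± 0.11) and the processing factors Rrp1b (2.55 ± 0.12), Bysl (2.49 ± 0.14) and Nop14 (2.14 ± 0.12) rose. MYC is known to act through the E-box CACGTG, which was in 5 of 27 windows of these genes (18.5%), against 7.15% of all windows and 9.51% of those of tested genes. Among all genes called at least 2-fold higher 10.8% of windows held it. The share was 10.1% for genes called at least 2-fold lower and 8.74% for genes not called. The window of Utp20 (chr10:88826765-88827064, minus strand), a processing factor, is shown with its E-box, from base 38 after the start site, in capitals.
Utp20 window: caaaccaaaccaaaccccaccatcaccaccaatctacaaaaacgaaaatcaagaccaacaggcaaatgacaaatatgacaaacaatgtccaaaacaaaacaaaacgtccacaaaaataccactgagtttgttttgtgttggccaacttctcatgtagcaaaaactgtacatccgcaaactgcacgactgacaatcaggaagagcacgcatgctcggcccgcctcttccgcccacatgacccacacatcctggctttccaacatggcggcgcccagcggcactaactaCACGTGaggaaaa

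Of 24 ribosomal proteins 10 were called higher and 2 lower, and their median change of 0.30 became -0.04 once arrays were centred, when 3 were higher and 6 lower. Without day 4 replicate 1 or 2, 4 or 5 were higher. Rps9 was at 10.81 and 10.89 on day 4 and at 10.92 on both day 0 arrays, and its interval lay within 1.5-fold. Rps27 was the exception, at 6.49 and 6.53 on day 4 and at 9.04 and 9.44 on day 0 (-2.73 ± 0.17). Translation factors stood between these groups, 17 of 21 higher and 1 lower (median 1.32). Eif4e, which binds the mRNA cap, rose by 2.12 ± 0.12, and its inhibitor Eif4ebp1 rose by 2.05 ± 0.12. The helicase Eif4a1 was at 11.12 and 11.28 on day 4 and at 12.43 and 12.44 on day 0, a fall of 1.24 ± 0.12. The elongation factor Eef1a1 was not called (0.12, adjusted p = 0.369).

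Transport through the nuclear envelope rose with them. All 23 tested nuclear pore and transport genes were higher (median 2.00), among them the pore subunits Nup37 (3.32 ± 0.11) and Nup43 (2.89 ± 0.13), the importins Kpnb1 (2.32 ± 0.11) and Kpna2 (2.72 ± 0.17) and the exportin Xpo1 (1.99 ± 0.11). Splicing genes were higher in 16 of 25 cases and lower in 2 (median 0.82). Snrpd1, a core snRNP protein, rose by 3.45 ± 0.24 with day 0 signals of 5.25 and 6.06, whereas Snrpd3 of the same ring was at 9.89 and 9.83 on day 4 and at 9.83 and 9.85 on day 0. The splicing regulator Srsf5 fell by 1.53 ± 0.11.

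Polyamines and iron are needed for division. Of 8 polyamine genes 5 were higher and 1 lower (median 0.69). Spermidine synthase (Srm) was at 10.22 and 10.17 on day 4 and at 6.89 and 6.72 on day 0 (3.39 ± 0.12), and Eif5a, which is modified with spermidine, rose by 1.94 ± 0.16. Sat1, which breaks polyamines down, was at 7.78 and 7.79 on day 4 and at 9.89 and 9.94 on day 0 (-2.14 ± 0.11). Odc1, the first enzyme of the pathway, was not called (0.12). For iron, 6 of 11 genes were higher and 3 lower. The transferrin receptor Tfrc was at 8.90 on both day 4 arrays and at 6.09 and 6.10 on day 0 (2.81 ± 0.11), and Steap3, which reduces the iron taken up, rose by 1.33 ± 0.12. The exporter ferroportin (Slc40a1) fell by 2.41 ± 0.30 and Hmox1, which frees iron from heme, by 2.22 ± 0.14. The storage gene Fth1 stayed within 1.5-fold (-0.11).

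Glycolysis rose in 14 of 15 genes (median 1.93) and the citrate cycle in 19 of 20 with none lower (median 1.11). The lactate carrier Slc16a1 was at 9.26 and 9.09 on day 4 and at 5.17 and 5.27 on day 0 (3.95 ± 0.11), and Pgam1, Pgk1 and Gapdh rose by 3.03 ± 0.11, 2.74 ± 0.10 and 2.21 ± 0.10. In the citrate cycle the subunits of isocitrate dehydrogenase moved by unequal amounts. Idh3a was at 8.79 and 8.67 on day 4 and at 5.15 and 5.63 on day 0 (3.34 ± 0.16), while Idh3b and Idh3g rose by 1.58 ± 0.12 and 1.48 ± 0.13. Citrate synthase (Cs) rose by 2.06 ± 0.11. Fatty acid oxidation genes rose in 12 of 16 cases by less (median 0.95), Eci1 by 1.60 ± 0.12 and Hadha by 1.24 ± 0.11, and Acadm was within 1.5-fold as deposited (0.02). Pentose phosphate genes rose in 4 of 10 cases and fell in 2, shares near the 37.5% and 22.4% of all genes. Among them Pgd was at 9.73 and 9.52 on day 4 and 7.32 and 7.56 on day 0. Mitochondrial ribosome and import genes rose in 23 of 25 cases and fell in none (median 1.46), Timm17a by 2.32 ± 0.13 and Tomm40 by 2.07 ± 0.11.

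Protein folding, secretion and breakdown rose with a few named exceptions. Of 27 genes of ER translocation and glycosylation 24 were higher and 2 lower (median 1.61). The oligosaccharide transferase subunits Stt3a and Stt3b rose by 2.58 ± 0.10 and 2.41 ± 0.11 and the signal peptidase subunit Spcs3 by 2.64 ± 0.11. The ER chaperone BiP (Hspa5) was at 9.22 and 9.10 on day 4 and at 9.82 and 9.93 on day 0, a fall of 0.71 ± 0.11. In the cytosol and mitochondria 18 of 22 chaperones were higher and 3 lower (median 1.46). The chaperonin subunits Cct3 (2.43 ± 0.14) and Tcp1 (1.79 ± 0.10), Hspa9 (1.89 ± 0.11) and Stip1 (2.34 ± 0.14) rose. The heat-inducible Hspa1a was at 2.90 and 3.15 on day 4 and at 6.57 and 6.47 on day 0 (-3.49 ± 0.21), its near-copy Hspa1b fell by 2.70 ± 0.28, and Hsp90aa1 stayed within 1.5-fold (-0.05). The proteasome gained 26 of 29 genes with 1 lower (median 1.24). Psmd1 rose by 2.62 ± 0.17, Psmb2 by 1.90 ± 0.13 and Psmb5 by 1.65 ± 0.12. The exception, Psme2 (-1.23 ± 0.17), belongs to the activator used in antigen processing.

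Immune proteasome subunits and MHC class I genes formed a small, divided list, 4 higher and 2 lower of 12. Of all genes 37.5% were higher and 22.4% lower. After centring 1 was higher and 3 lower, and without day 4 replicate 1 the higher ones numbered 2. The peptide-trimming enzyme Erap1 rose by 2.06 ± 0.13. The class I gene H2-K1 was at 10.56 and 10.55 on day 4 and at 11.59 and 11.47 on day 0 (-0.97 ± 0.11), its transactivator Nlrc5 fell by 1.10 ± 0.17, and Psmb9 stayed within 1.5-fold (0.09).

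Genes of quiescence fell. Of 26 tested genes 23 were lower (background 22.4%), 1 was higher and 2 were not called (median -1.79). Klf2, which keeps lymphocytes resting and in circulation, was at 5.56 and 5.60 on day 4 and at 10.45 and 10.47 on day 0 (-4.88 ± 0.16, adjusted p = 9.43e-07). Irs2 fell by 3.19 ± 0.11, and the antiproliferative genes Btg1 and Btg2 fell by 2.62 ± 0.11 and 2.78 ± 0.13. Foxo1, S1pr1, which guides exit from tissue, and the cell cycle inhibitor Cdkn1b were looked up after the values were seen and fell by 0.87 ± 0.11, 2.86 ± 0.32 and 1.01 ± 0.14. Day 4 replicates of S1pr1 differed, at 5.18 and 3.99, against 7.53 and 7.35 on day 0. The exception was the transcription factor Lef1, a rise of 0.82 ± 0.14, which after quantile normalization was 0.30 and not called. The inhibitor Cdkn2d was not called, with 7.07 and 7.15 on day 4 between day 0 values of 6.76 and 7.29.

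Immediate-early genes, which cells switch on within minutes of stimulation or handling, fell in 17 of 21 cases and rose in 4 (median -2.01). Jun was at 7.79 and 7.74 on day 4 and at 10.83 and 10.82 on day 0 (-3.06 ± 0.11), and Ier2 fell by 3.20 ± 0.11. The exceptions with the lowest adjusted p included Fosl2 (0.78 ± 0.13, and 0.27 without a call after quantile normalization) and Nr4a3 (0.59 ± 0.12). Within the NR4A family Nr4a1 fell 33.1-fold, while the change of Nr4a3 was 0.24 after centring and then not called. The cAMP response element TGACGTCA was in 2 of the 27 windows available for 18 immediate-early genes (7.41%). It was in 1.79% of all windows and 2.85% of those of tested genes. Btg2, which is also on the quiescence list, has this motif at position -166 from its start site (chr1:134079106-134079405, minus strand), shown in capitals.
Btg2 window: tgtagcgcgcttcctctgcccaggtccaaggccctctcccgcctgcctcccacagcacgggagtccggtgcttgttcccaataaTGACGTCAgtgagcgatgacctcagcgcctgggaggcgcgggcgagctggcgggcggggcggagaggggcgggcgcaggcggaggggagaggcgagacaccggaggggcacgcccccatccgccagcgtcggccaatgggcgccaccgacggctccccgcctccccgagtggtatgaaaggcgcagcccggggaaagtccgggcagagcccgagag

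Inhibitors of NF-kB and factors that destroy cytokine mRNA fell in the same way, 14 of 19 lower and 2 higher (median -1.27). Nfkbiz was at 5.39 and 5.42 on day 4 and at 9.08 and 9.18 on day 0 (-3.72 ± 0.11). Tristetraprolin (Zfp36), the ubiquitin editor A20 (Tnfaip3), the inhibitor Nfkbia and the nuclease Zc3h12a fell by 3.41 ± 0.11, 3.13 ± 0.12, 2.85 ± 0.11 and 1.85 ± 0.11. Of the exceptions, Nfkbib rose by 0.68 ± 0.12, which after quantile normalization was 0.15 and not called. The deubiquitinase Cyld stayed within 1.5-fold (-0.07). Of 18 feedback inhibitors of ERK 8 were higher and 8 lower (median -0.12), or 4 higher and 9 lower after centring. Dusp1, given above, had the lowest adjusted p of them and fell by 4.06 ± 0.15. Spry4 was at 7.13 and 7.05 on day 4 and at 5.23 and 5.26 on day 0 (1.85 ± 0.11) and Dusp14 rose by 1.23 ± 0.15, while Spry2 fell by 0.96 ± 0.11 and Dusp2 by 1.38 ± 0.10.

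Of 24 genes of JAK-STAT signalling, which lies downstream of IL-2, 9 were higher and 7 lower (median 0.04), a share of higher genes equal to the 37.5% of all genes. After centring 4 were higher and 12 lower, and without day 4 replicate 1, 5 were higher. Cish, a STAT5 target that inhibits the receptor, was at 6.96 and 7.09 on day 4 and at 4.99 and 5.39 on day 0 (1.83 ± 0.15). Socs1 rose by 0.89 ± 0.13 and Socs3 fell by 1.18 ± 0.15. The survival genes Bcl2 and Mcl1 were opposed, Bcl2 at 10.40 and 10.59 on day 4 and 9.26 and 9.08 on day 0 (1.33 ± 0.12) and Mcl1 at 8.84 and 8.94 on day 4 and 9.96 and 9.85 on day 0 (-1.02 ± 0.12). Stat5b stayed within 1.5-fold (-0.10, adjusted p = 0.51).

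Lytic granule contents rose in 15 of 20 cases with none lower (median 1.45), and 4 of the 20 were background on both day 0 arrays. Beside the granzymes, the granzyme inhibitor Serpinb9b was at 10.08 and 9.98 on day 4 and at 5.80 and 6.39 on day 0 (3.93 ± 0.19), and Serpinb6a was not called (-0.02). Of 26 genes of the machinery that carries granules to the synapse 9 were higher, 9 lower and 8 not called (median 0.05), and 5 were higher and 12 lower after centring. Without day 4 replicate 1, 5 were higher. Sytl2 was at 9.19 and 9.17 on day 4 and at 6.82 and 6.54 on day 0 (2.50 ± 0.12), and it is a partner of Rab27a, which docks granules and rose by 1.54 ± 0.12. Rab7 rose by 1.34 ± 0.11. Lyst, whose loss gives giant granules, was at 6.66 and 6.63 on day 4 and at 8.77 and 8.86 on day 0 (-2.17 ± 0.11). The vesicle SNAREs Vamp2 and Vamp4 fell by 2.14 ± 0.11 and 0.81 ± 0.12, and Sytl1 was not called (-0.02). Lysosome and autophagy genes were split too, 9 higher and 7 lower of 26 (median -0.01), against 37.5% and 22.4% of all genes. After centring 6 were higher and 14 lower (median -0.35). Proton pump subunits were among the genes higher as deposited, Atp6v1a by 1.60 ± 0.13 and Atp6v1b2 by 1.53 ± 0.15, with the protease Ctsd (1.02 ± 0.11). Ctsh (-1.19 ± 0.15), Ctsz (-0.76 ± 0.11) and the master regulator Tfeb (-0.81 ± 0.17) fell.

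Cytokine receptors moved in both directions. Of 27 genes 10 were higher, a share near the 37.5% of all genes, and 14 lower, against 22.4% of all genes (median -0.49). After centring 6 were higher and 17 lower. The high-affinity alpha chain Il2ra was at 9.06 and 9.21 on day 4 and at 5.50 and 5.44 on day 0 (3.66 ± 0.11, adjusted p = 6.64e-07), and the IL-12 receptor chain Il12rb1 was at 8.08 and 8.05 on day 4 and at 5.46 and 5.57 on day 0 (2.55 ± 0.11). Il7r was at 4.31 and 3.88 on day 4 and at 7.96 and 8.40 on day 0 (-4.09 ± 0.19). Il6ra fell by 2.78 ± 0.18. Flt3 (-2.99 ± 0.19) is known from progenitors and dendritic cells, whose marker sums also fell, and it is itself among the dendritic cell markers. The IL-4 receptor Il4ra stayed within 1.5-fold (0.05).

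Adhesion molecules moved in both directions. Of 24 genes 8 were higher, a share below the 37.5% of all genes, and 12 lower, against 22.4% of all genes (median -0.32). After centring 5 were higher and 16 lower. Collagen-binding integrins were opposed. Itga1 was at 7.66 and 7.53 on day 4 and at 4.84 and 5.03 on day 0 (2.66 ± 0.12), and Itga2, which encodes the NK marker CD49b, was at 7.17 and 7.06 on day 4 and at 9.28 and 9.34 on day 0 (-2.19 ± 0.12). Itga4 (-2.53 ± 0.10) and the laminin receptor Itga6 (-2.38 ± 0.11) fell. Itgav rose by 1.19 ± 0.11, and Itgae was not called (-0.11). Thy1 was at 10.33 and 10.40 on day 4 and at 8.20 and 8.15 on day 0. It encodes CD90, the protein through which the marrow was depleted, so its lower level on day 0 is given only as a description. The day 4 cells had been collected by adherence, and the part of that step in these values was not tested.

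Of 25 receptor signalling molecules 10 were lower and 2 higher (median -0.23), and after centring 17 were lower and none higher. Syk was at 6.72 and 6.63 on day 4 and at 9.11 and 9.13 on day 0 (-2.45 ± 0.10). Syk is also abundant in B cells and myeloid cells. On the same arrays B cell marker sums were lower on day 4, neutrophil sums higher and monocyte sums level within their spread, and their part in the fall of Syk was not tested. Zap70, a kinase of the same family, was at 8.11 and 8.12 on day 4 and at 7.84 and 7.74 on day 0, a change of 0.33 (adjusted p = 0.0349) that became -0.02 after centring. Its adjusted p was 0.0803 without day 0 replicate 2, 0.119 without day 4 replicate 1 and 0.129 without day 4 replicate 2. DAP10 (Hcst), the adaptor of NKG2D, fell by 1.62 ± 0.11 and Vav2 by 2.11 ± 0.20. Plcg1 fell by 1.27 ± 0.13 and the receptor Cd226 by 1.04 ± 0.11. The Fc receptor gamma chain Fcer1g rose by 0.54 ± 0.11, or 0.19 without a call after centring, and Vav1 was not called (9.16 and 9.08 on day 4, 9.12 on both day 0 arrays). In the SLAM family 5 of 13 genes were higher, a share near the 37.5% of all genes, and 4 lower, against 22.4%. After centring 4 were higher and 6 lower (median -0.14). The adaptors Sh2d1a and Sh2d1b2 rose by 1.08 ± 0.10 and 3.06 ± 0.25, while the receptors Slamf1, Slamf6 and Cd84 fell by 2.28 ± 0.13, 1.86 ± 0.16 and 0.91 ± 0.12. Slamf8, known from myeloid cells, rose by 1.22 ± 0.12 and Cd48 was not called (-0.15).

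A gene that misses the threshold is not thereby shown to be unchanged, so intervals were counted as well. The 95% interval of the change lay within 1.5-fold either way for 2876 genes (20.5%). Of the genes described above as not called or within this bound, Cd48, Cyld, Fth1, Hsp90aa1, Itgae, Klrk1, Max, Rb1, Rps9, Stag1, Stat5b, Acadm, Il4ra, Klre1, Snrpd3, Vav1 and Atf4 were called lower after centring. The bound held for 2250 genes on that scale, and without day 4 replicate 1 or 2 for 1588 or 1532. Of the 5607 genes not called, 2797 met this bound and 2810 had an interval too wide to say. By list, it held for 12 of 25 in the receptor signalling list, 9 of 24 in JAK-STAT signalling and 8 of 24 among ribosomal proteins, against none of 41 mitotic, 38 replication, 28 ribosome biogenesis, 23 nuclear pore, 21 nucleotide, 19 sterol and 21 immediate-early genes.

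Day 9 cells without the inhibitor were set against day 4 cells in the same fit, a comparison that shares the day 4 arrays with the one above. In it 3898 of 13998 genes were called (27.8%), 1710 higher (12.2%) and 2188 lower (15.6%) on day 9. Without day 4 replicate 1 or 2 the total was 2223 or 2241, with 964 or 935 higher and 1259 or 1306 lower.

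All 41 mitotic genes were lower on day 9 than on day 4 (median -3.48), and 37 of 38 replication genes were (median -1.90). The list median of the mitotic genes was 5.41 and 5.45 on day 0, 8.60 and 8.53 on day 4 and 4.94 and 5.00 on day 9. Nuclear pore genes were lower in 18 of 23 cases (median -1.07), nucleotide synthesis in 14 of 21 and ribosome biogenesis in 19 of 28, with list medians that still stood 1.03, 1.01 and 0.78 above day 0 on day 9. Of the 19 synthetases 4 were higher and 3 lower than on day 4, with a median of 0.02, and the list median stood 2.10 above day 0. Granule contents were higher in 6 of 20 cases and lower in 1, and Gzmg, Gzmf and Serpinb9b were 2.39, 4.44 and 1.10 above day 4. Quiescence genes were called higher in 9 of 26 cases and lower in 3, and stayed below day 0 (median -1.24). Irs2 and Btg1 regained 1.38 and 1.34, while Klf2 fell by a further 0.80. The neutrophil markers were lower in 14 of 17 cases on day 9 (median -1.57), and 10 of 13 monocyte markers were lower. The part of these markers in the day 9 values of the other lists was not tested.

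**Figure D5:**
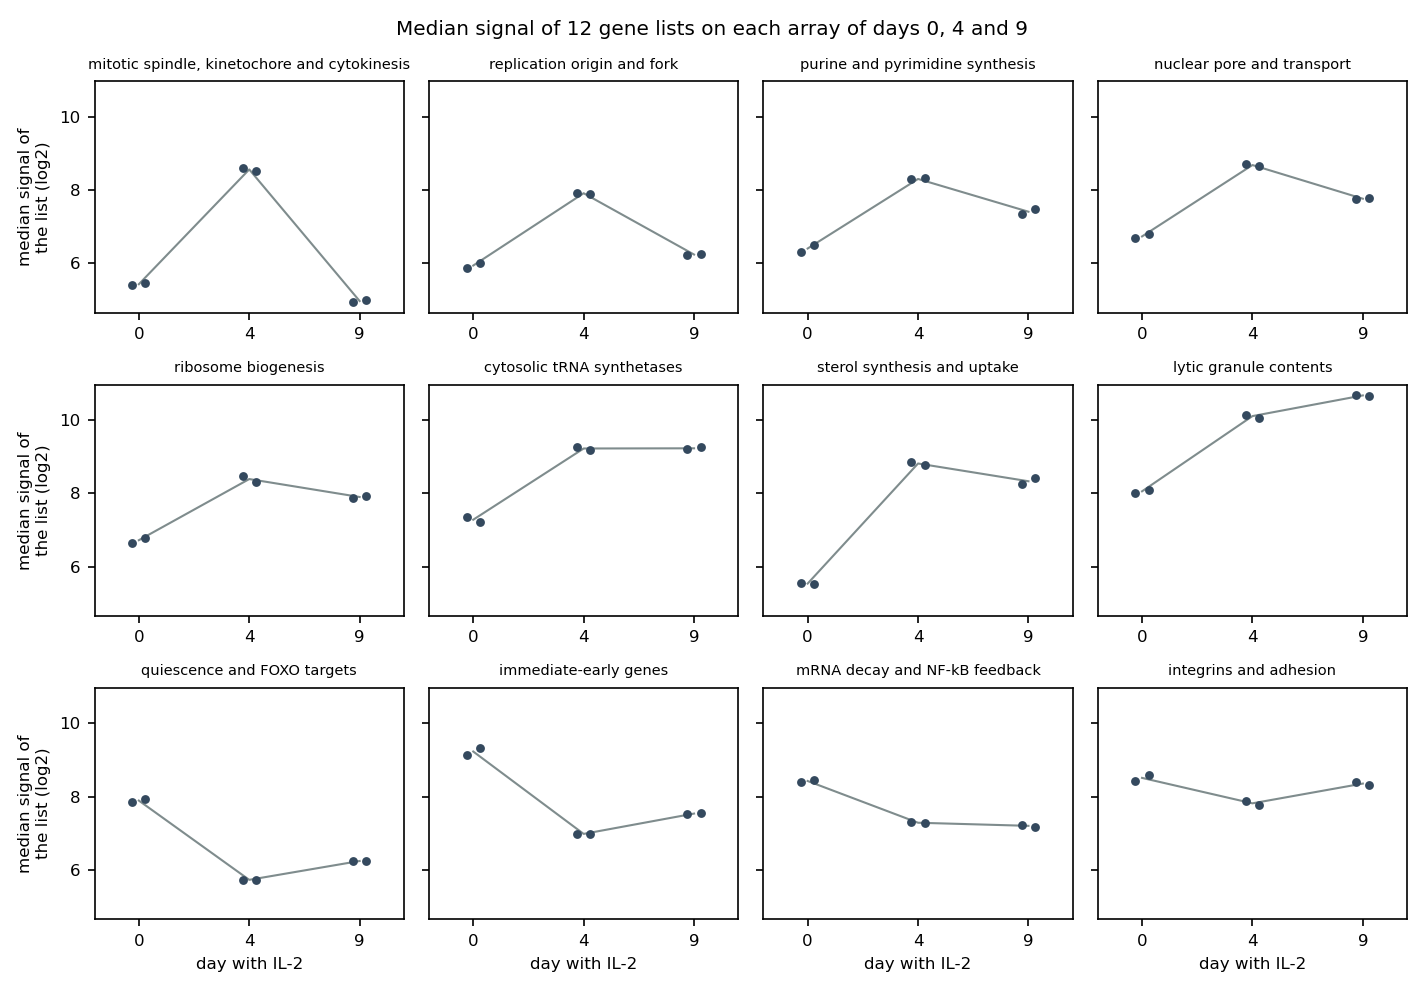
Median signal (log2) of the tested members of 12 gene lists on each array of days 0, 4 and 9 without inhibitor; points are arrays and lines join the means of 2 arrays. Mitotic genes are at 5.41 and 5.45 on day 0, 8.60 and 8.53 on day 4 and 4.94 and 5.00 on day 9, whereas tRNA synthetases are at 9.26 and 9.19 on day 4 and 9.20 and 9.26 on day 9.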

How the data were processed

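The labels describe polyadenylated RNA of mouse NK cells, amplified once and hybridised to Affymetrix Mouse Gene 2.0 ST arrays, 8 in all. Each transcript cluster has a deposited log2 value, which the authors made with RMA in the Transcriptome Analysis Console, per the submitters' processing notes; versions and annotation release were not stated there. Of 41345 clusters, 23521 name 1 gene, and those naming several (1820) or none (16004) were left out. For the 1082 genes with several clusters the brightest was kept. A table of group averages was not used, having no spread.

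A gene was tested if it reached the array median on at least 2 of 8 arrays. Array medians, here and for the background rule taken over all clusters, lay between 3.6639 and 3.9146. The model, run in R 4.3.3 with limma 3.58.1, had a mean for each of the 4 groups and used all 8 arrays (eBayes, 4 residual and 3.69 prior degrees of freedom), with Benjamini-Hochberg adjustment over all tested genes. With 2 arrays a group, their number limits the precision. On simulated data in 13998 genes for day 4 against day 0, with 200 genes changed in each of 20 runs, the fit found 24.9% of the genes set to 1.5-fold and 66.3% at 2-fold. At 4-fold it found 94.1% and at 8-fold 98.6%, and 5.08% of its calls were false. The runs changed far fewer genes than the 59.9% called in the data. They also gave all groups the same spread, although the day 0 replicates differed more. These shares therefore hold for that setting only. Tables and figures were made with Python 3.11.15, pandas 2.3.3 and matplotlib 3.10.9.

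The 40 function lists and 12 marker lists held 1046 genes, of which 917 entered the tests, while 22 were too dim and 107 lacked a cluster of their own; 19 were matched through another symbol. Lists and comparisons were chosen with earlier results of these data known. Named were the 25 largest rises and falls with arrays that did not overlap, in each list the 5 called members of lowest adjusted p, up to 3 against the majority and the uncalled member with the highest adjusted p, the NK markers, and the 3 brightest other markers on each day. Ccnd2, Myc, Atf4, Foxo1, S1pr1, Cdkn1b and Hmmr, and the other genes given only for their promoters, were added after their values were seen. Promoter windows are RefSeq's (GRCm38.p6). After the motif counts were seen, the whole windows were restricted to motifs at least 2 times as common in the list as in all windows, and a loose motif of 10 letters was dropped. Alternatives were other filters, scalings, variance models, gene summaries, the replicate number as a block, only the 4 arrays compared, and each day 4 and day 0 array left out.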

Additional observations from a re-analysis of the deposited data

How the results depend on the processing

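The number of genes called higher on day 4 stayed within 1.5 times under all 13 alternatives, and 31 of 40 list counts did. Genes called lower (3141) numbered 5735 after centring and 1847 with the filter at percentile 75. Genes within 1.5-fold (2876) numbered 1569 at percentile 75, 5710 without a filter, which tests more genes, and between 1532 and 2770 with 1 array left out. Leaving out 1 array, the day 9 against day 4 comparison gave 2223 to 4933 called genes, 935 to 2224 higher and 1259 to 2709 lower. Members called higher after centring numbered 4 for ERK feedback (8 as deposited), 4 for JAK-STAT signalling (9), 1 for MHC class I presentation (4), 3 for ribosomal proteins (10) and 5 for granule movement (9). After quantile normalization they numbered 4, 4, 1, 4 and 4 in that order, 3 for the SLAM family (5), 5 for lysosome and autophagy (9) and 3 for polyamines (5). Ribosomal proteins called higher numbered 6 with the mean of a gene's clusters. Members of the receptor signalling list called lower (10) numbered 17 after centring and 18 after quantile normalization. With 1 array left out, members called higher ran from 5 to 9 for JAK-STAT signalling, 2 to 6 for MHC class I presentation, 4 to 10 for ribosomal proteins and 5 to 10 for granule movement. An arm left with 1 array was assumed to vary like the other groups. Dim signals limit the fold changes that start or end below the array median, and the low number of arrays limits the detection of small changes.

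Of 304 called genes among the 350 named, 274 kept their call under every alternative, 30 lost it at least once and 6 changed sign. Sign changes are listed for these and for named genes called only under the alternative, which after centring were all but Zap70. Signs turned after centring for Acadm (-0.33), Il4ra (-0.30), Klre1 (-0.34), Snrpd3 (-0.33), Vav1 (-0.34) and Zap70 (-0.02). They turned after quantile normalization for Acadm (-0.49), Cd3e (-0.04), Dnmt3a (-0.42), Gata3 (-0.38), Il4ra (-0.46), Klre1 (-0.51), Npc2 (-0.43), Psmb9 (-0.41), Rc3h1 (-0.11), Snrpd3 (-0.42), Vars (-0.35), Vav1 (-0.49) and Zap70 (-0.17). With the mean of a gene's clusters they turned for Rpl3 (-0.54), Rpl4 (-0.11) and Rps24 (0.19). The cause was not tested. The replicate block gave 8311 called genes (5207 higher, 3104 lower), 3635 for day 9 against day 4, 2832 within 1.5-fold, and 4 named genes lost and 1 gained a call. Same-numbered arrays did not deviate together (correlation of deviations -0.025 between day 4 and day 0, and between -0.033 and 0.053 over all 6 pairs of groups), so the numbers were not taken to pair the samples.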
